A study of Mus musculus with 12 samples.

Results

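The small leucine-rich proteoglycans (SLRPs) described here are 9 genes, Dcn, Bgn, Aspn, Lum, Fmod, Prelp, Omd, Ogn and Podn, taken by symbol from the 47480 gene symbols of the deposited count table. The rule for membership was the gene family and has no threshold on a measured value, though the family was picked with earlier results of these data known. All 9 were in the table, and all 9 passed the filter on low counts that left 17236 genes for testing.

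RNA from mouse trigeminal nerve was measured in 12 samples. In 6 samples, labelled normal nerve, the mice carried Nf1 flox/flox alleles and were PostnCre negative. In the other 6, labelled plexiform neurofibroma, the mice carried the same Nf1 flox/flox alleles and were PostnCre positive. Both groups thus share the floxed Nf1 alleles and differ in the Cre, which is expressed under the periostin (Postn) promoter, so deletion of Nf1 is limited to cells in which that promoter has been active and the rest of the nerve keeps its Nf1. Nf1 encodes neurofibromin, a negative regulator of Ras, and its loss in the Schwann lineage gives rise to plexiform neurofibromas, benign tumours of the nerve sheath. The labels give no age, sex or litter, and they do not say that the samples came from separate animals, so p-values measure the spread between these 12 samples. Replicate numbers below only name libraries.

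SLRPs are secreted proteins built on a core of leucine-rich repeats, most of which carry chondroitin, dermatan or keratan sulfate chains. They bind fibrillar collagens and set the width and spacing of fibrils, and several also bind growth factors such as TGF-beta or receptors on the cell surface. In peripheral nerve they are known as matrix products of the fibroblasts of the endoneurium and epineurium. The family is divided into classes by sequence: Dcn (decorin), Bgn (biglycan) and Aspn (asporin) form class I, Lum (lumican), Fmod (fibromodulin), Prelp and Omd (osteomodulin) belong to class II, Ogn (osteoglycin) to class III and Podn (podocan) to class V.

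Most members lie in short runs of related genes (build GRCm38, the assembly of mm10, GENCODE vM21 positions of whole genes). Dcn is at chr10:97479609-97518143 and Lum, its neighbour on the same strand, at chr10:97565128-97572703, with Kera and Epyc next to them. Aspn (chr13:49544443-49567565), Omd (chr13:49582462-49592822) and Ogn (chr13:49608046-49624501) follow each other, with Ecm2 before them. Prelp (chr1:133910304-133921414) and Fmod (chr1:134037254-134048277) are neighbours on opposite strands. Bgn (chrX:73483602-73495933) and Podn (chr4:108014791-108096445) stand alone. Aspn, Omd, Ogn and Ecm2 lie within the span of Cenpp on the other strand, and Podn overlaps Scp2 on its own strand. Whether counting used strand is not given in the sources used here, so reads of overlapping genes could be shared. Cenpp was low, at a mean of 1.22 CPM (counts of the gene scaled to the library's total) in normal nerve and 1.60 CPM in tumours, while Scp2 was at 107.2 and 145.8 CPM, above Podn in every library.

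The sequence before the start site is shown for 3 members that differed in how they varied: Bgn, which rose in the tumours, Ogn, abundant in every library, and Fmod, the member with the widest spread. These are the 250 bases upstream of the annotated start from RefSeq on GRCm38.p6, 5′ to 3′ on the plus strand, at chrX:73483351-73483600 for Bgn, chr13:49607765-49608014 for Ogn and chr1:134037004-134037253 for Fmod. Capitals mark matches, on either strand, to the TATA box TATAAA, the AP-1 consensus TGANTCA and the GC box GGGCGG.
Bgn: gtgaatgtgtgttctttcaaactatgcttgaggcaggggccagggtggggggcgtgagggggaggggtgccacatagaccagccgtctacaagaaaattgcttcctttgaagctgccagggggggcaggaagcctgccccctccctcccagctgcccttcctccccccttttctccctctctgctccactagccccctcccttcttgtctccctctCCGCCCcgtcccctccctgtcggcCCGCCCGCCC
Ogn: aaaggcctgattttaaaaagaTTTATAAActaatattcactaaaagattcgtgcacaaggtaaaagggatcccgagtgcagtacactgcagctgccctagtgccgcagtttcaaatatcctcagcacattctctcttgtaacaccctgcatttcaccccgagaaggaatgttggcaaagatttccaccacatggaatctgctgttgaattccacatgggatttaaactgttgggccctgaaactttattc
Fmod: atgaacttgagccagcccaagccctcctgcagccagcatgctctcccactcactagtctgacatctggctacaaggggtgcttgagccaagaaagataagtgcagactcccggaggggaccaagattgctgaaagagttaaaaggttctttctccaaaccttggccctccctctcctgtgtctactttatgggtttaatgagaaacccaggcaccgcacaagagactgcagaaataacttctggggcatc
The Bgn window held 3 GC box matches, 2 of which share bases, and 64.4% of its bases were G or C, against a median of 52.4% over 32851 RefSeq windows of the same length. The Ogn window held 2 overlapping TATA box matches, whose first bases lay at -229 and -227 from the start, and the Fmod window held none of the 3 motifs. Over all windows, 32.7% held a GC box, 12.4% a TATA box and 6.75% an AP-1 match. Of the 9 members, 7 had an entry, with 8 windows in all. A match is a description of these letters and not a binding site.

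Total counts ran from 14160025 to 19989351 per library. The mean level of Nf1 itself was 131.1 ± 35.8 CPM in normal nerve, and that in plexiform neurofibroma was 83.8 ± 8.13 CPM (SD, n = 6 each; log2 fold change -0.65, edgeR adjusted p = 0.0179), and Postn was 6.37-fold higher in tumours (adjusted p = 0.00083). The groups overlapped in Nf1: normal nerve replicates 2 (85.5 CPM) and 6 (90.6 CPM) lay within the tumour range of 69.6 to 93.1 CPM. Some libraries stood apart. Normal nerve replicate 2 was the lowest normal library for 9 of 9 members, against 22.0% of all tested genes. It had the lowest summed level of fibroblast markers (255.5 CPM) and of Schwann cell markers (5289 CPM). Of the 14 fibroblast markers, 6 had their lowest normal level there, while Ly6a, Cd34 and Ly6c1 had their highest. Its sensory neuron markers had the highest sum of all 12 libraries (5861 CPM), and those of normal nerve replicate 6 the lowest (2842 CPM). Normal nerve replicate 6 had the highest sum of dural and leptomeningeal fibroblast markers (407.2 CPM, next highest 210.6 CPM) and of central nervous system markers (923.5 CPM, next highest 447.2 CPM), the latter including 142.9 CPM of Gad1 against at most 4.34 CPM elsewhere. Plexiform neurofibroma replicate 1 held adipocyte markers at 1236 CPM, against at most 17.5 CPM in the others, and skeletal muscle markers at 1791 CPM. Normal nerve replicate 3 held muscle markers at 463.1 CPM, against at most 101.2 CPM in the other 10 libraries, and was the highest normal library for 5 of 9 members. Without it Dcn, Bgn and Lum were still the 3 members called higher. Plexiform neurofibroma replicate 2 held pericyte and vascular smooth muscle markers at 615.6 CPM, against at most 304.0 CPM in the other tumours. It was the highest tumour for 4 of 9 members, against 21.7% of all tested genes, and without it only Lum was called higher. Results are also given without normal nerve replicates 2 and 6 and plexiform neurofibroma replicate 1, the 3 libraries that stood apart in what follows, an alternative chosen after seeing the data.

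Dcn and Lum were higher in every plexiform neurofibroma than in every normal nerve, and Bgn was higher on average with some overlap. These 3 were the members called: edgeR's quasi-likelihood test with Benjamini-Hochberg adjustment over all tested genes called 3 of 9 higher and 0 of 9 lower. The log2 fold change was above 0 in 6 of 9. Of all 17236 genes, 10.0% were called higher and 8.63% lower. At an unadjusted p under 0.05, 5 members were higher and 1 was lower, against 17.3% and 17.9% of all genes. DESeq2 called 5 members higher and 1 (Fmod) lower, against 13.1% and 11.9% of all genes, and limma-voom 6 higher and 0 lower, against 16.7% and 15.7%. With a correction for transcript length edgeR called 2 higher and 0 lower (8.62% and 6.52% of all genes), and with no filter on low counts 0 in either direction (4.24% and 2.80%). The median log2 fold change of the 9 members was 0.69, against -0.02 over all genes. Both Dcn and Lum showed no overlap between the groups, which held in the higher direction for 4.40% of all tested genes and in the lower direction for 2.99%, though for none of the members. Without the 3 libraries that stood apart, 5 members were called higher (Dcn, Bgn, Lum, Prelp and Podn; 12.6% of all genes were) and 1 lower (Fmod; 11.7% of all genes).

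**Figure D1:**
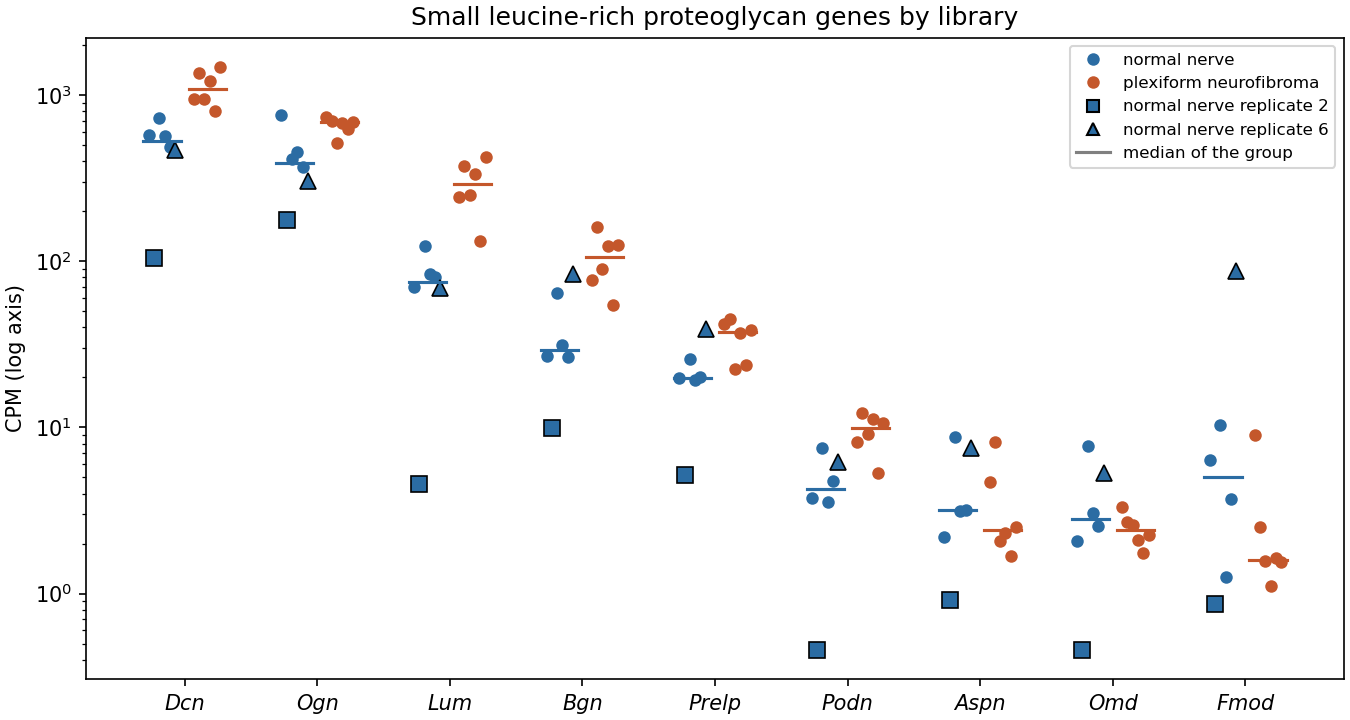
Level of each of the 9 members in every library, in CPM on a log axis, for 6 normal nerves (blue) and 6 plexiform neurofibromas (orange); lines mark group medians, squares normal nerve replicate 2 and triangles normal nerve replicate 6. The tumour points of Dcn (803.7 to 1479 CPM) and Lum (133.2 to 425.7 CPM) all lie above the normal points, while those of Aspn, Omd and Fmod overlap them.

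Among the class I genes, Dcn, whose protein coats collagen fibrils and binds TGF-beta, was the most abundant by count. In normal nerve the lowest library held 104.1 CPM of Dcn, the median was 529.4 and the highest 725.3. In plexiform neurofibroma the lowest held 803.7 CPM, the median was 1083 and the highest 1479. All 6 tumours lay above all 6 normal nerves, and the lowest normal value was that of replicate 2, the other 5 normal nerves lying at 465.9 CPM or more. The means were 488.6 ± 209 and 1124 ± 266 CPM (SD, n = 6 each), a 2.30-fold rise (95% interval 1.37 to 3.86; log2 fold change 1.20, SE 0.34, edgeR adjusted p = 0.0308). Without the 3 libraries that stood apart the log2 fold change was 0.98 (adjusted p = 0.0052). The call was lost when plexiform neurofibroma replicate 2, 4 or 6 or normal nerve replicate 5 was left out, where the adjusted p reached 0.0664 at most and the log2 fold change stayed between 1.11 and 1.20.

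Bgn, decorin's closest relative, which also acts as a ligand of Toll-like receptors when it is free of the matrix, ran from 9.87 through a median of 29.1 to 84.1 CPM in normal nerve. In tumours it ran from 54.5 through 106.9 to 160.0 CPM. Normal nerve replicates 6 and 3 were the high normal libraries, at 84.1 and 64.9 CPM, and 4 tumours exceeded both. The mean rose from 40.6 ± 27.9 to 105.1 ± 38.2 CPM, 2.59-fold (log2 fold change 1.37, SE 0.44, edgeR adjusted p = 0.0480). This call was close to the threshold: it held in 3 of the 12 fits that leave out 1 library, with adjusted p up to 0.100, and was lost with a correction for transcript length (adjusted p = 0.0552). Without the 3 libraries that stood apart the log2 fold change was 1.56 (adjusted p = 0.0209).

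Aspn, which binds collagen and TGF-beta and carries an aspartate-rich stretch, was low. It ran from 0.916 through 3.17 to 8.81 CPM in normal nerve and from 1.69 through 2.43 to 8.13 CPM in tumours. The ranges overlapped throughout, with the high values in normal nerve replicates 3 and 6 and in plexiform neurofibroma replicates 2 and 1. Its log2 fold change was -0.26 (95% interval -1.41 to 0.89, edgeR adjusted p = 0.757), and it turned to 0.093 without normal nerve replicate 3 (adjusted p = 0.919).

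Lum, a keratan sulfate proteoglycan that regulates the assembly of collagen fibrils, had the largest rise of the 9. It ran from 4.58 through 75.2 to 124.2 CPM in normal nerve and from 133.2 through 293.0 to 425.7 CPM in tumours. Every tumour was above every normal nerve, and apart from replicate 2 the normal nerves lay between 68.8 and 124.2 CPM. The mean rose from 72.0 ± 38.7 to 293.7 ± 105 CPM, 4.08-fold (log2 fold change 2.03, 95% interval 0.87 to 3.19, SE 0.53, edgeR adjusted p = 0.0223). The call held in 12 of 12 fits that leave out 1 library, with adjusted p of 0.0488 at most, and the log2 fold change was 1.76 without the 3 libraries that stood apart (adjusted p = 0.0070).

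Of 13 tested fibroblast markers 3 (Col1a1, Col1a2 and Osr2) were called higher and 10 did not pass, with a median log2 fold change of 0.22. For this and the other marker lists, the shares over all tested genes were 10.0% higher and 8.63% lower. Col1a1 and Col1a2 are also in the collagen list below. The marker sum ran from 255.5 through 427.8 to 634.1 CPM in normal nerve and from 563.0 through 931.6 to 1514 CPM in tumours. Without Col1a1 and Col1a2 it ran from 137.5 through 164.4 to 267.4 CPM and from 169.8 through 216.2 to 265.8 CPM, with the groups overlapping. The count of 3 became 1 when plexiform neurofibroma replicate 2, 4 or 6 or normal nerve replicate 5 was left out, and 5 without normal nerve replicate 6 or without the 3 libraries that stood apart. Normal nerve replicate 2 and plexiform neurofibroma replicate 5 were lowest in both the full sum and the level of Dcn, Bgn and Lum within their groups. Not all fibroblast markers were low in normal nerve replicate 2. Ly6a (25.6 CPM), Cd34 (49.2 CPM) and Ly6c1 (56.0 CPM) had their highest normal level there, while 6 of 14 had their lowest. In bulk RNA, more cells of a type and more RNA per cell cannot be told apart. Of 10 Schwann cell markers 6 were called higher, with a sum of 13322 to 22771 CPM in tumours and 5289 to 14318 CPM in normal nerve. Of 8 macrophage markers 3 were called higher and 1 lower, with a sum of 108.7 to 218.6 and 37.7 to 153.8 CPM; the 3 became 5 without normal nerve replicate 6 and 1 in each fit leaving out 1 library other than that one, normal nerve replicate 3 and plexiform neurofibroma replicate 3. Of 6 tested perineurial markers 3 were called higher, with a sum of 283.8 to 364.8 CPM in tumours and 236.1 to 308.2 CPM in normal nerve, and 1 when plexiform neurofibroma replicate 4 or 6 or normal nerve replicate 5 was left out. No list held a gene at 0 in every library. The part of cell numbers in the members' levels was not tested.

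Fmod, a collagen-binding protein best known from tendon and cartilage, varied most. Normal nerve libraries ran from 0.865 through a median of 5.05 to 87.2 CPM and tumours from 1.11 through 1.60 to 9.07 CPM. The value of 87.2 CPM belongs to normal nerve replicate 6, the next normal library (replicate 3) being at 10.4 CPM, and the value of 9.07 CPM to plexiform neurofibroma replicate 1. The log2 fold change was -2.64 (95% interval -5.00 to -0.28, SE 1.08, edgeR adjusted p = 0.106). It was -0.63 without normal nerve replicate 6 (adjusted p = 0.544), -3.42 without plexiform neurofibroma replicate 1, and -1.70 without all 3 libraries that stood apart (adjusted p = 0.0292). DESeq2 called Fmod lower (-2.64, adjusted p = 0.0389) and limma-voom did not (-0.91, adjusted p = 0.361).

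The library with the most Fmod was also the one with the most meningeal markers. All 10 dural and leptomeningeal fibroblast markers had their highest normal level in normal nerve replicate 6, for 9 of them the highest of all 12 libraries, among them Slc13a4 at 54.8 CPM against at most 18.5 CPM elsewhere. That library was the highest normal one for 31.2% of all tested genes. It was so for 9 of 10 central nervous system markers, 6 of 8 pericyte and vascular smooth muscle markers, 5 of 8 osteoblast markers and 5 of 8 endothelial markers. For the 10 dural and leptomeningeal markers the edgeR adjusted p between the groups ran from 0.152 to 0.845. That of Mgp, the most abundant of the 10, was the lowest. Slc47a1 is named because it was chosen after its values were seen. Its 3 highest libraries had the order seen for Fmod. They were normal nerve replicate 6 (28.7 CPM), normal nerve replicate 3 (21.8 CPM) and plexiform neurofibroma replicate 1 (13.4 CPM). That order did not hold in Slc6a13, Foxc1, Crabp2, Slc13a4 and Zic1, where a tumour lay above every normal nerve except replicate 6. Nor did it hold in Mgp, highest in a tumour (154.7 CPM). In Foxc2, Aldh1a2 and Fxyd5, as in Slc47a1, a normal nerve came next after replicate 6. Of the 10 markers, 8 had their highest tumour level in plexiform neurofibroma replicate 1, as did 15.7% of all tested genes. The sum of the 10 markers was 208.6 CPM in plexiform neurofibroma replicate 2, above the 188.4 CPM of plexiform neurofibroma replicate 1. Mgp alone had a tumour median of 107.1 CPM. Tendon markers were at a similar sum in both groups (29.3 to 46.0 CPM in normal nerve, 32.7 to 45.3 CPM in tumours), with Kera at 0.12 CPM or less in every library. The chondrocyte sum was highest in normal nerve replicate 6 (72.3 CPM, at most 55.6 CPM elsewhere), as was the osteoblast sum (44.1 CPM, at most 39.4 CPM elsewhere). Pericyte and vascular smooth muscle markers summed to 497.3 CPM there, against at most 270.7 CPM in the other normal nerves. In plexiform neurofibroma replicate 2 they summed to 615.6 CPM, the highest of all 12 libraries. The part of these tissues in the Fmod values was not tested.

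**Figure D2:**
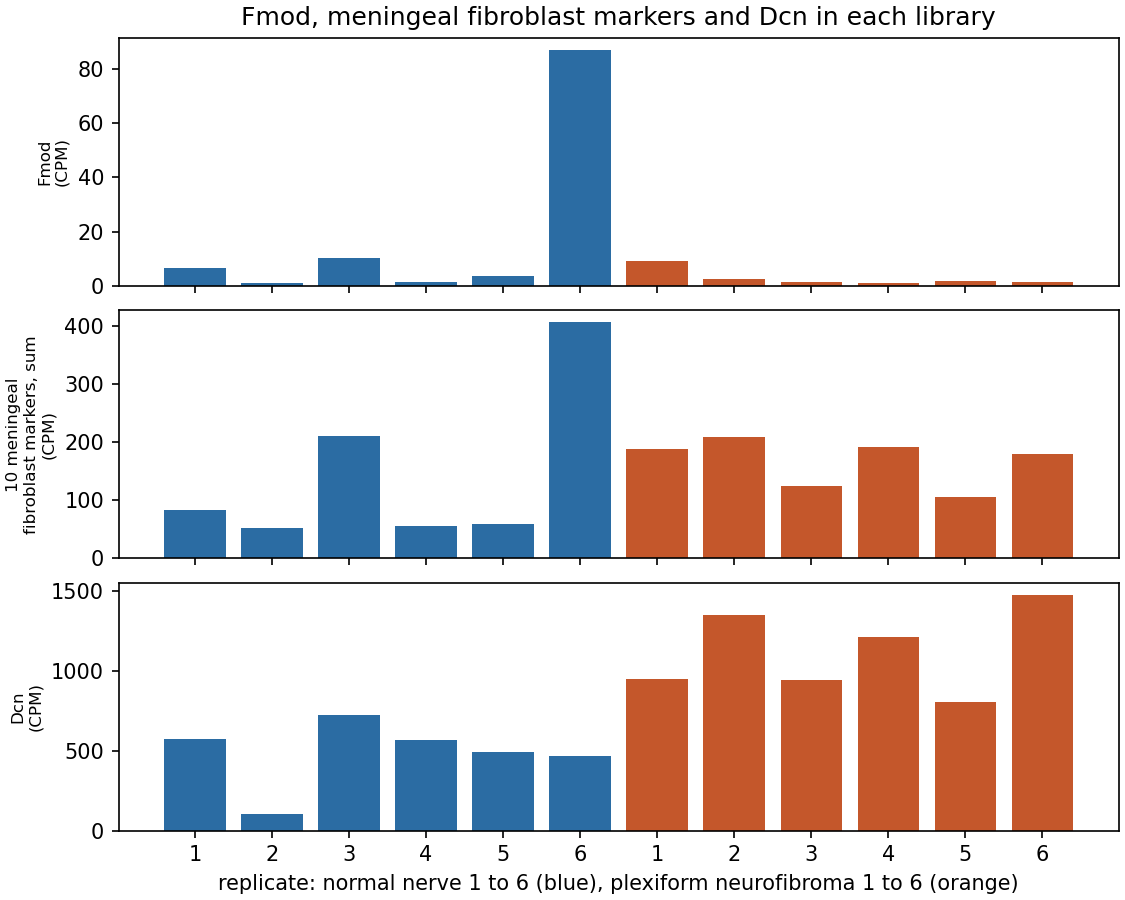
Bars give CPM in each of the 12 libraries (normal nerves blue, plexiform neurofibromas orange) for Fmod, for the sum of the 10 dural and leptomeningeal fibroblast markers and for Dcn, each on its own axis from 0. Normal nerve replicate 6 is highest for Fmod (87.2 CPM) and for the markers (407.2 CPM), but not for Dcn (465.9 CPM).

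Prelp, a class II protein with a basic end that binds heparan sulfate, ran from 5.19 through 19.9 to 38.9 CPM in normal nerve and from 22.6 through 37.7 to 45.0 CPM in tumours. All 6 tumours were above the normal median, and the highest normal library, replicate 6, lay among the tumours. The log2 fold change was 0.69 (95% interval -0.07 to 1.46, edgeR adjusted p = 0.180), and 0.65 without the 3 libraries that stood apart (adjusted p = 0.0435). Omd, a bone and dentin SLRP, ran from 0.458 through 2.81 to 7.71 CPM in normal nerve and from 1.75 through 2.43 to 3.33 CPM in tumours, all within the normal range. Its log2 fold change was -0.52 (95% interval -1.52 to 0.49, edgeR adjusted p = 0.448). Its SD was 2.58 CPM among the normal nerves and 0.548 CPM among the tumours (n = 6 each).

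Ogn (osteoglycin, also named mimecan) was the member nearest to Dcn in abundance. It ran from 177.2 through 391.5 to 759.6 CPM in normal nerve and from 517.4 through 684.6 to 743.6 CPM in tumours. Normal nerve replicate 1, at 759.6 CPM, was above all 6 tumours, and the other 5 normal nerves, at 454.7 CPM or less, were below all of them. The mean was 413.0 ± 196 CPM in normal nerve and 658.7 ± 79.3 CPM in tumours (SD, n = 6 each; log2 fold change 0.67, 95% interval 0.11 to 1.24, edgeR adjusted p = 0.0865). Without normal nerve replicate 1 the log2 fold change was 0.94 and the gene passed the test (adjusted p = 0.0101), while without the 3 libraries that stood apart it was 0.37 (adjusted p = 0.189).

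Podn, which binds type I collagen, ran from 0.458 through 4.27 to 7.54 CPM in normal nerve and from 5.35 through 9.92 to 12.1 CPM in tumours. Of the tumours, 5 lay above the highest normal nerve (replicate 3), and plexiform neurofibroma replicate 5 did not. The log2 fold change was 1.12 (95% interval 0.17 to 2.06, edgeR adjusted p = 0.0881), 0.88 without normal nerve replicate 2 (adjusted p = 0.0317) and 0.98 without the 3 libraries that stood apart (adjusted p = 0.0261). Scp2, which overlaps Podn on the same strand, was also higher in tumours (adjusted p = 0.0090), and sharing of reads between them was not tested.

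**Figure D3:**
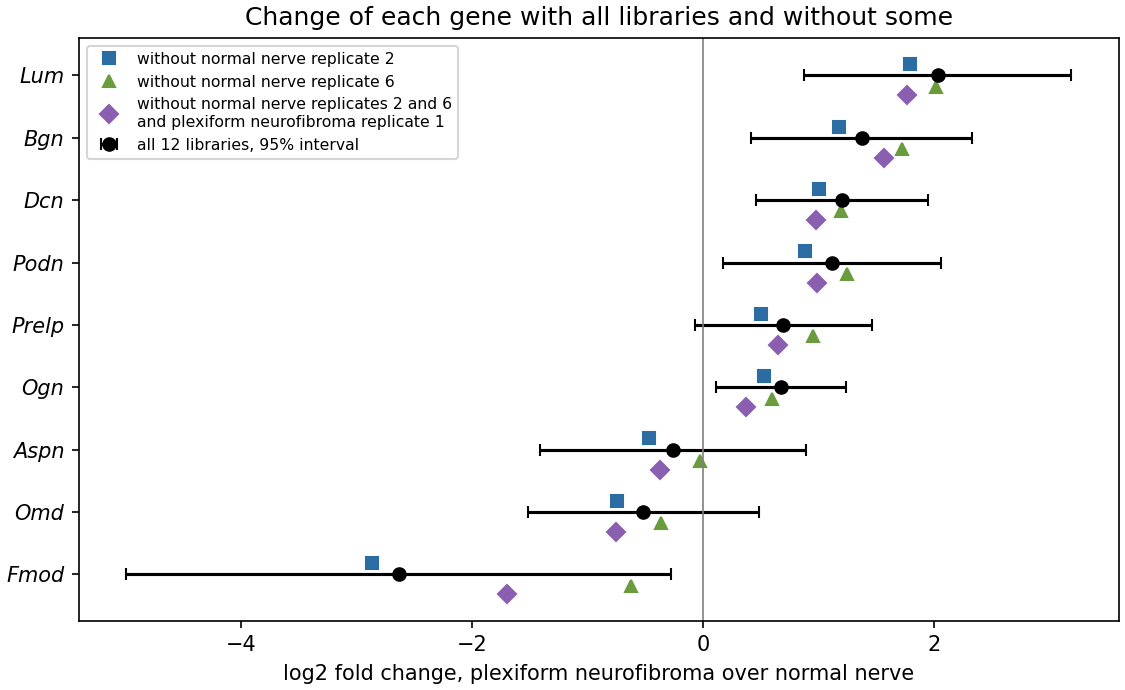
Log2 fold change of each member, plexiform neurofibroma over normal nerve, from edgeR with all 12 libraries (black points, bars the 95% interval) and with libraries left out (colored symbols, named in the key). Lum (2.03), Bgn (1.37) and Dcn (1.20) are the 3 called members, and the interval of Fmod (-5.00 to -0.28) is the widest, with a value of -0.63 without normal nerve replicate 6.

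Set side by side per length (CPM per kilobase of the longest coding transcript, a length chosen after seeing the data), the levels of the family spanned a wide range. In normal nerve Dcn was highest at 277.9 ± 119 CPM per kb (SD, n = 6), followed by Ogn at 160.9 ± 76.3, Lum at 29.4 ± 15.8, Bgn at 16.8 ± 11.5, Prelp at 5.96 ± 3.03, Fmod at 5.86 ± 10.9, Aspn at 1.85 ± 1.35, Omd at 1.57 ± 1.15 and Podn at 1.38 ± 0.771. The only neighbours in that order whose ranges did not overlap were Ogn and Lum. In tumours the order of the first 5 was the same: Dcn was at 639.6 ± 151 CPM per kb, Ogn at 256.7 ± 30.9, Lum at 120.0 ± 43.0, Bgn at 43.4 ± 15.8 and Prelp at 9.62 ± 2.59. Podn (2.98 ± 0.778), Aspn (1.54 ± 1.06), Omd (1.09 ± 0.244) and Fmod (0.932 ± 0.978) followed. There the ranges of Dcn and Ogn, Ogn and Lum, Bgn and Prelp, and Prelp and Podn did not overlap, while Podn, Aspn, Omd and Fmod each overlapped the next. The order of Dcn and Ogn rests on the transcript used: with the longest transcript of any type, 4692 bases for Dcn in place of 1758, Ogn ranked above Dcn in both groups.

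The 9 genes together took up a larger share of the RNA in tumours. Their summed level ran from 303.6 through 1118 to 1468 CPM in normal nerve and from 1648 through 2248 to 2770 CPM in tumours, without overlap; apart from replicate 2, the normal nerves lay at 1001 CPM or more. Within the sum per length, Lum made up 5.32% ± 2.24 in normal nerve and 10.9% ± 2.12 in tumours, Dcn 54.0% ± 6.83 and 59.2% ± 2.46, and Ogn 34.1% ± 10.9 and 24.5% ± 4.55 (SD, n = 6 each). The share of Lum thus differed by more than its SD in either group, and that of Ogn by less than its SD in normal nerve. These shares rest on the coding length of 1758 bases for Dcn. Shares with its longest transcript of any type (4692 bases) were not computed.

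**Figure D4:**
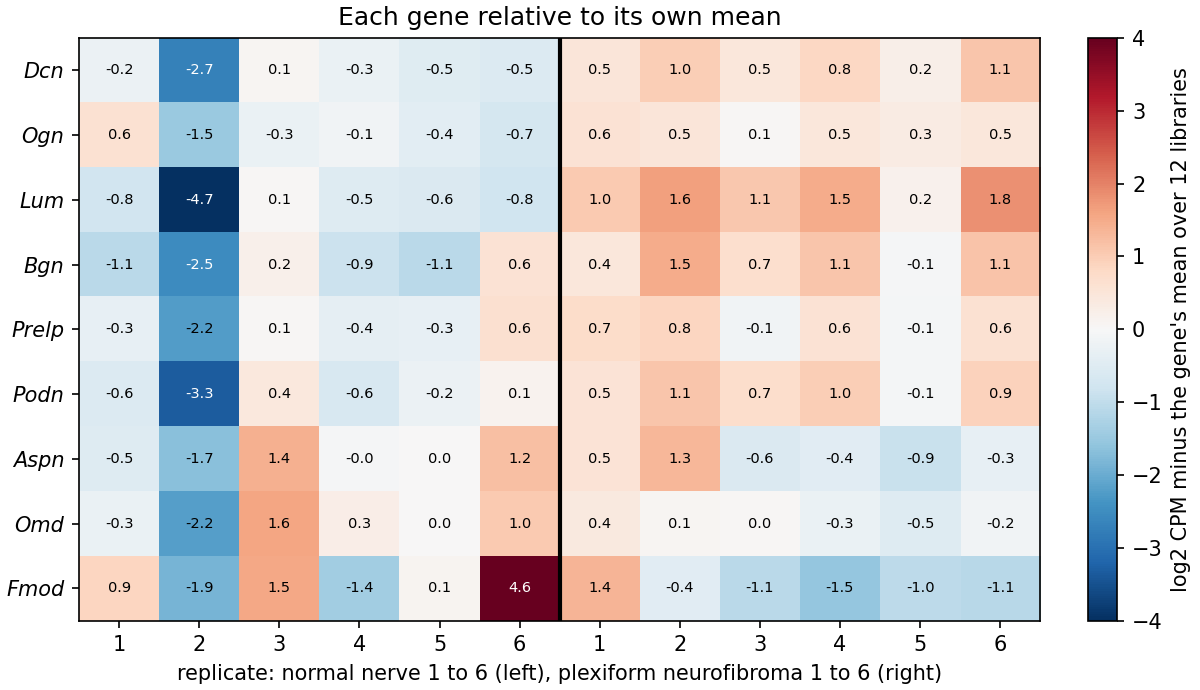
Log2 CPM of each member minus its mean over the 12 libraries (color scale and printed values, in log2 units; colors end at 4 in either direction), with the 6 normal nerves left of the line and the 6 plexiform neurofibromas right of it. Normal nerve replicate 2 is the lowest normal library in all 9 rows, and the Fmod row peaks in normal nerve replicate 6.

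Ratios between members within a library do not depend on its total count, so all 36 pairs were compared as log2 ratios by an exact permutation test (two-sided, all ways to split the 12 libraries 6 to 6), with p-values adjusted over the 36. In 20 pairs the ratio differed between the groups, and in 8 the groups did not overlap. The 36 pairs reuse the same 9 genes, so they are not independent. How often pairs of other genes would pass was not tested, so these counts cannot be read as particular to the family. The smallest p that the test can give is 0.00216, with 0.0097 after adjustment. Lum differed in 7 of its 8 pairs and Ogn in 1 of 8.

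The ratio of Dcn to Lum, neighbours on chromosome 10, ran from 2.54 through a median of 2.76 to 4.47 log2 units in normal nerve and from 1.80 through 1.89 to 2.59 in tumours. Dcn exceeded Lum in every library, but by less in the tumours: the mean log2 ratio fell by 1.03, from 3.03 ± 0.73 to 2.00 ± 0.30 (exact permutation p = 0.0043, adjusted p = 0.0142). The highest tumour overlapped the lowest normal nerve. Against the other class II genes Lum was shifted upward, by 1.56 log2 units against Prelp and 2.55 against Omd (exact permutation, adjusted p = 0.0097 for each, no overlap). It also gained 1.02 on Podn (exact permutation, adjusted p = 0.0097).

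The ratio of Bgn to Aspn went from 3.24 ± 0.26 to 4.96 ± 0.69 log2 units, and that of Bgn to Omd from 3.56 ± 0.41 to 5.30 ± 0.56 (exact permutation, adjusted p = 0.0097 for each). Dcn rose against Omd by 1.52 and Omd fell by 1.53 against Podn (exact permutation, adjusted p = 0.0097 for each). Dcn, Bgn and Podn each separated from Omd without overlap. Of the pairs with Fmod, 5 of 8 passed, all with overlapping groups.

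In other pairs no difference was resolved. The difference between groups was -0.02 log2 units for Dcn to Podn (exact permutation, adjusted p = 0.975), -0.22 for Dcn to Bgn (0.560), 0.0065 for Aspn to Omd (0.987) and 0.055 for Prelp to Ogn (0.965). For Dcn to Ogn it was 0.58 (exact permutation, adjusted p = 0.0909). These p-values do not show that the ratios were equal. Over 16 settings (all libraries, other prior counts, each library left out, and the 3 libraries left out), 13 pairs passed in every setting, Dcn to Lum among them, and 8 in none. The count fell to 13 without plexiform neurofibroma replicate 4 or 6.

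**Figure D5:**
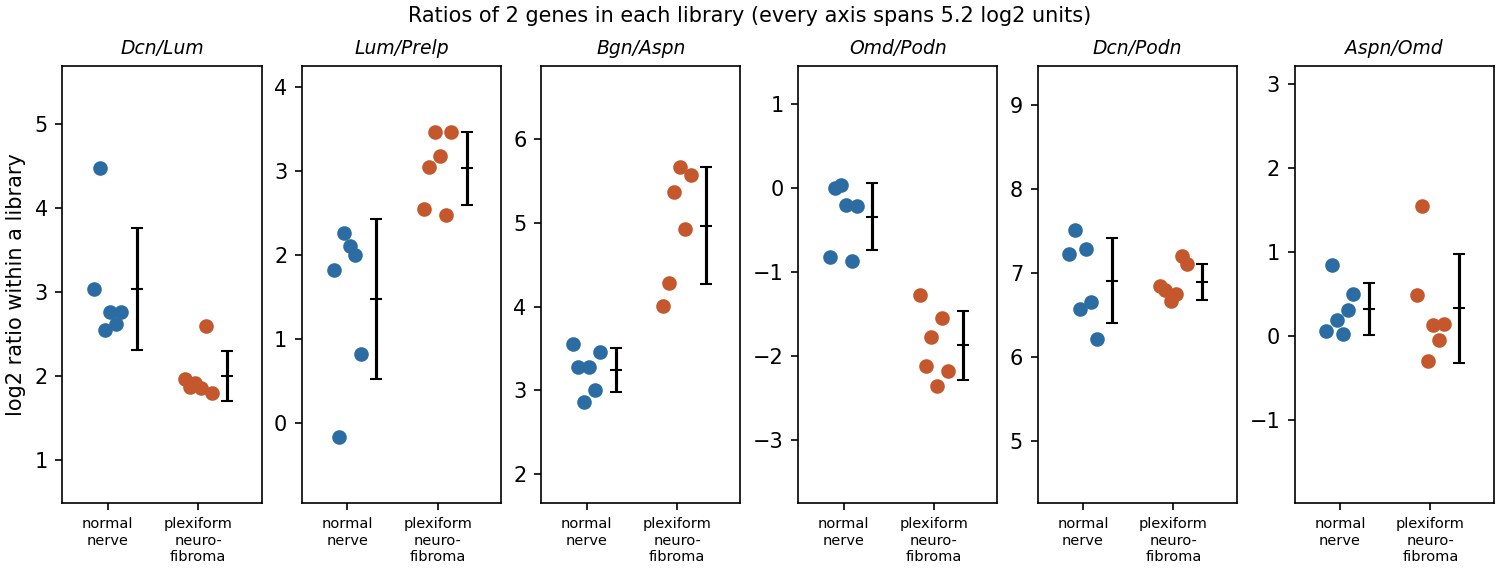
Log2 ratio of 6 pairs of members in each library, with mean and SD beside the points of the 6 normal nerves (blue) and 6 plexiform neurofibromas (orange); every axis spans the same number of log2 units. Dcn to Lum is lower in tumours (mean 2.00 against 3.03), Bgn to Aspn is higher (4.96 against 3.24), and Dcn to Podn differs by -0.02.

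Of 9 further SLRP genes, 6 passed the filter and 1 was called higher, where 10.0% of all tested genes were. Chadl (chondroadherin-like), a collagen-binding protein of cartilage, went from 10.8 ± 2.48 CPM in normal nerve to 20.4 ± 4.99 CPM in tumours, 1.89-fold without overlap (log2 fold change 0.92, SE 0.19, edgeR adjusted p = 0.0074), and the call held in 12 of 12 fits that leave out 1 library. Tsku (tsukushi), a secreted inhibitor of BMP signalling, was at 1.38 and 3.33 CPM (log2 fold change 1.28, adjusted p = 0.0591) and passed without the 3 libraries that stood apart (1.49, adjusted p = 0.0213). Ecm2, beside Aspn, had a log2 fold change of 0.44 (adjusted p = 0.296), and Epyc, in the run with Dcn and Lum, one of 0.53 (adjusted p = 0.239). Chad (-0.27, adjusted p = 0.686) and Nyx (-0.07, adjusted p = 0.900) were near 1 CPM. Kera, Optc and Podnl1 stayed below 1 CPM in all 12 libraries and were not tested.

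Of 13 collagens that SLRPs bind, edgeR called 7 higher, the other 6 did not pass, all 13 log2 fold changes were above 0, and their median was 1.08. Over all tested genes 10.0% were called higher. Col3a1, a fibrillar collagen of soft tissue, went from 55.4 to 237.9 CPM, 4.30-fold (edgeR adjusted p = 0.0095). Col5a2 and Col5a1, chains of the type V collagen that starts fibrils, were 2.09-fold and 2.53-fold higher (adjusted p = 0.0036 and 0.0106), and Col6a3, a chain of the beaded type VI collagen, was 2.16-fold higher (adjusted p = 0.0066). Their summed level ran from 357.6 to 784.3 CPM in normal nerve and from 930.7 to 2546 CPM in tumours, without overlap. Leaving out 1 library gave 6 to 9 collagens called higher, and leaving out the 3 that stood apart gave 10.

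Of 29 tested genes of the linker and of chondroitin and dermatan sulfate synthesis, 2 were called higher and 3 lower, with a median log2 fold change of -0.0005; of all genes, 10.0% were called higher and 8.63% lower. Slc35b2, a transporter of the sulfate donor, was 1.49-fold higher and Ugdh, which makes UDP-glucuronic acid, 1.24-fold higher, while Chst15, Chst11 and Chpf2 were at 0.674, 0.792 and 0.797 of their normal level. With 1 library left out, the lower count ranged from 0 (plexiform neurofibroma replicate 2 or 4 or normal nerve replicate 5 left out) through 1 (plexiform neurofibroma replicate 6 or normal nerve replicate 2 or 4) to 5 (normal nerve replicate 6), and the higher count from 2 to 4 (plexiform neurofibroma replicate 5 or normal nerve replicate 1). Of 10 keratan sulfate genes 3 were called higher and the other 7 did not pass (median 0.11): the sulfotransferase Chst2 (1.34-fold), Fut8 (1.39-fold) and St3gal3 (1.25-fold). The sum of the keratan sulfate list ran from 344.6 to 381.0 CPM in normal nerve and from 375.8 to 450.4 CPM in tumours. Its count of 3 became 1 when normal nerve replicate 3 or 5 or plexiform neurofibroma replicate 1, 2, 4 or 6 was left out. With the 3 libraries left out, 2 keratan sulfate genes were higher and 1 was lower.

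Of 11 tested genes that process or cleave SLRPs or their collagens, 3 were called higher and the other 8 did not pass (median -0.02). For this list and the next, the shares over all tested genes were 10.0% higher and 8.63% lower. Mmp2, a gelatinase, rose 3.45-fold, Mmp14, which activates it, 1.75-fold, and Pcolce, an enhancer of procollagen cleavage, 2.58-fold (edgeR adjusted p = 0.0092, 0.0110 and 0.0364). Of 29 tested growth factors and receptors reported to bind SLRPs, 7 were called higher and 1 lower (median 0.43). P2rx4 and Cd14, receptors of the innate response to biglycan, were 1.40-fold and 1.77-fold higher, the TGF-beta receptor gene Tgfbr2 1.56-fold, and Wisp1, a matricellular protein that binds decorin and biglycan, 1.88-fold higher. Vegfa was at 0.822 of its normal level. The count of 7 ranged from 3 (without plexiform neurofibroma replicate 4) to 14 (without normal nerve replicate 6) when 1 library was left out. It was 4 without plexiform neurofibroma replicate 2 or 6.

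Over the 12 libraries, the genes whose pattern was nearest to the mean pattern of the 9 members were Egfr, Cped1, Mrc1, Islr and Foxd1, among 12546 genes with a mean of at least 5 CPM. The measure was the root mean square difference of centred log2 CPM, which was 0.165 for Egfr and 0.274 for Foxd1, against a median of 0.896 over all ranked genes. Their adjusted p between the groups ran from 0.175 to 0.725 (edgeR). Among the members, Prelp lay nearest to the mean (0.206) and Fmod farthest (1.57). All points share the 12 libraries, normal nerve replicate 2 with its low levels included.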

How the data were processed

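Polyadenylated RNA of 12 trigeminal nerve samples was sequenced. Per the labels' protocols, RNA came from a column kit; a stranded kit and TruSeq v2 are both named for the libraries. STAR 2.4.2a, Salmon 0.60, FastQC, DESeq2 and build mm10 are named, with no role or order, per the submitters' processing notes. For annotation and strand setting, nothing is given in the sources used here. The table that the authors deposited holds expected counts per gene symbol without normalization: 84.1% to 86.5% of a library's values were whole within 0.001. Such estimates share reads between similar genes.

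Counts were rounded. After filterByExpr, 17236 genes were fitted with the quasi-likelihood test of edgeR 4.0.16 (R 4.3.3; TMM factors, robust, no covariate), and p-values were adjusted by Benjamini-Hochberg over all of them; a call is an adjusted p under 0.05. CPM uses TMM-scaled library sizes. Of 47480 symbols, 45187 matched GENCODE vM21 directly and 613 through a RefSeq synonym. Log2 ratios use a prior count of 2. Alternatives were upper-quartile or RLE factors, no filter, CPM above 1 in 6 samples, DESeq2 1.42.0, limma 3.58.1 voom with sample weights, a lowess correction for transcript length (span 0.3) and leaving out libraries. The length correction and the length slopes given below used the longest transcript of any type, while levels per kb used the longest coding transcript. The fit was tested on simulated counts, drawn from the fitted dispersions, with known changes in a small part of the genes. It recovered 30% of 1.5-fold, 80% of 2-fold, 90% of 4-fold and 100% of 8-fold changes, and 6.83% of its calls were false. Small changes can thus be missed. The simulation held no library that stood apart and no trend with transcript length, so its rates may differ from those of these data. Totals of 14160025 to 19989351 counts set the precision; levels near 1 CPM rest on few reads.

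The members and lists were chosen with earlier results of these data known. The text names all members, the other SLRP genes, up to 4 called genes of each further list in order of p-value (with none called, the smallest p), and of marker lists the sums and up to 2 genes; other names were chosen after their values were seen. No 2 libraries held over 0.969% identical values.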

Additional observations from a re-analysis of the deposited data

Results flagged for a closer look

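Fmod was the gene with a library far from the rest of its group. In normal nerve replicate 6 it was at 87.2 CPM, against 0.865 to 10.4 CPM in the other 5 normal nerves, a gap of 0.890 of the group's range where Dixon's 95% limit for 6 samples is 0.625. In plexiform neurofibroma replicate 1 it was at 9.07 CPM, against 1.11 to 2.52 CPM in the other 5 tumours, a gap of 0.823 of the range. Chance gives such a gap in about 1 in 20 groups, and 2 of 34 groups examined showed one.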

How the results depend on the processing

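The 3 members called higher were 3 under RLE and upper-quartile factors and the CPM filter. They became 0 with no filter on low counts (5 at an unadjusted p under 0.05; adjusted p 0.0731 for Dcn, 0.0644 for Lum and 0.113 for Bgn, with 32206 genes tested), 2 with the length correction, 5 with DESeq2 (Ogn and Podn added) and 6 with limma-voom (Prelp also). Leaving out 1 library gave 1 to 3, with 1 (Lum) when plexiform neurofibroma replicate 2, 4 or 6 or normal nerve replicate 5 was left out; without the 3 libraries that stood apart there were 5. Members called lower numbered 0 in the edgeR fits of all 12 libraries and in those leaving out 1, and 1 (Fmod) with DESeq2 and without the 3 libraries. All genes called, 3218 in the edgeR fit, were 5585 with limma-voom and ranged from 1893 (without plexiform neurofibroma replicate 4) to 5031 (without normal nerve replicate 6), with 2098 without normal nerve replicate 5. The 27 pathway genes called were 45 with DESeq2, 45 with limma-voom and 15 to 41 with 1 library left out (15, 16 and 17 without plexiform neurofibroma replicate 4, 2 and 6, and 41 without normal nerve replicate 6). The 20 pairs whose ratio passed were 20 with other prior counts and 13 to 22 with 1 library left out. The log2 fold change of Aspn ranged from -0.68 to 0.093 with 1 library left out, changing sign without normal nerve replicate 3 (adjusted p = 0.919). The causes were not tested. Log2 CPM leaned with log2 transcript length, at slopes of 0.0161 to 0.0776 in normal nerves and -0.0558 to -0.0246 in tumours, and its part beyond the length correction was not tested. No paired analysis was possible because the labels carry no replicate numbers shared between the groups. Depth limits Fmod, Aspn, Omd and Podn, for which the lowest normal library held 17, 18, 9 and 9 counts.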
